A study of Vitis vinifera with 2 samples.

Results

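The regions described here are stretches of the grapevine genome in which methylation at CG differed between a diploid and its autotetraploid, while the neighbouring CHG cytosines were almost unmethylated in both. The genome was divided into windows of 500 bp, and a window was read when at least 6 CG and 6 CHG cytosines were listed in both libraries and each library had at least 60 CG reads in it. This left 309448 windows on chromosomes 1 to 19. A window was a member when its CG level, the methylated reads over all reads, differed by 25 percentage points or more and its CHG level was under 5% in both libraries. Of the 309448 windows, 222 met the rule: 132 were higher in the autotetraploid (gains) and 90 were lower (losses). The members were thus chosen by the measured CG and CHG levels themselves, and these levels are given below as a description, with no test.

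The study examined 'Jingyanjing', a diploid Vitis vinifera vine (2X), and a line of the same vine whose genome had been doubled with colchicine, its autotetraploid (4X), by whole-genome bisulfite sequencing of DNA from terminal buds. The vines of both lines were grown under the same standard care, and the buds of several vines were pooled. Each line gave 1 library, so a difference between lines has no replicate check and cannot be told apart from a difference between individual plants or library preparations. The 2X library listed 109144737 cytosines at a mean depth of 12.9 reads and the 4X library 107953697 cytosines at 11.9 reads.

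In plants, cytosines are methylated in 3 sequence contexts, CG, CHG and CHH, where H is any base but G. CG methylation is copied onto the new strand after replication by MET1, a maintenance methyltransferase that acts on hemimethylated CG pairs. CHG methylation is maintained by chromomethylases that are recruited to methylated histone H3, and CHH methylation by RNA-directed DNA methylation and by another chromomethylase. Transposons and silenced repeats usually carry all 3 kinds, whereas the transcribed bodies of many genes carry CG methylation alone. CG methylation without CHG is also the kind that is known, from Arabidopsis, to be gained and lost at single sites over generations. Whether the members lie in genes was not examined, since an annotation on the coordinates of the files was not used here; positions are those of the files.

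CG-only changes were a small part of the genome and a minority of all CG changes of this size. Of the windows read, 519 were higher in 4X by 25 points or more, which is 0.168% of them, and 235 were lower, which is 0.0759%. The 132 gains made up 25.4% of the former and the 90 losses 38.3% of the latter. Windows with CHG under 5% in both libraries numbered 141327, or 45.7% of those read, and within these the gains were 0.0934% and the losses 0.0637%. By Fisher's exact test on the CG reads of each window, adjusted by the Benjamini-Hochberg method over all windows, 0.800% of all windows were called higher in 4X and 0.591% lower; 111 of the 132 gains and 80 of the 90 losses were among these, but this test used the values that chose the members and nothing is read from it. Here as in all tests below, p-values compare 2 libraries and not 2 conditions.

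The reads of each cytosine were also re-dealt at random between the libraries at their own depths, which removes any difference between the lines. In 3 such deals, 13, 11 and 14 windows met the rule as gains and 14, 14 and 9 as losses, against the 132 and 90 observed. Re-dealing treats each read at each cytosine as a separate draw, whereas one DNA molecule covers several cytosines of a window. The observed spread was wider than the re-dealt one also in windows of middle level as a whole: over the 16252 CHG-free windows with a pooled CG level of 20 to 60%, the difference between libraries had an SD of 8.84 points, against 6.70 to 6.72 points after re-dealing. The re-dealt counts are therefore given as a reference for read sampling alone, and not as the number of members expected with no difference between the lines.

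In the gains the median CG level was 22.3% in 2X and 53.6% in 4X. The levels ranged from 0% to 58.8% in 2X and from 25.4% to 90.0% in 4X, and the median difference was 28.4 points (25.05 to 62.1). Most gains were therefore near the threshold: 82 of 132 differed by 25 to 30 points, 40 by 30 to 40 points, and 10 by 40 points or more. They were mostly increases in windows that were already partly methylated in 2X. In 73 gains the 2X level was 10 to 40% and in 25 it was 40% or more. It was under 10% in 34, under 5% in 21 and exactly 0% in 5. A rise from under 5% in 2X to 40% or more in 4X was seen in 5 windows. Only 7 gains had a window level above 80% in 4X, while 62 lay at 40 to 60%. A window level averages over its cytosines, so single ones can lie higher.

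In the losses the median CG level was 59.0% in 2X and 31.0% in 4X. The levels ranged from 25.5% to 94.2% in 2X and from 0% to 62.0% in 4X, and the median difference was -27.8 points (-43.5 to -25.01). Of the 90 losses, 67 differed by 25 to 30 points, 22 by 30 to 40 points and 1 by 40 points or more. The 4X level was 10 to 40% in 52 losses and 40% or more in 23. It was under 10% in 15, under 5% in 8 and 0% in 2. No loss fell from 40% or more to under 5%, and 8 started above 80% in 2X. Gains thus reached larger differences than losses, with 10 windows against 1 at 40 points or more.

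**Figure D1:**
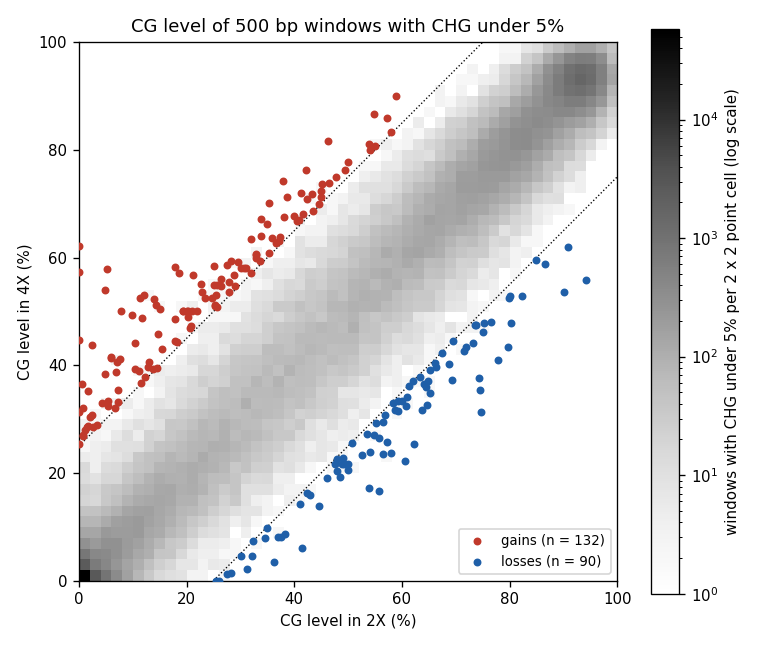
CG level in 2X (horizontal axis, %) against CG level in 4X (vertical axis, %) for 500 bp windows with CHG under 5% in both libraries. Grey cells count all 141327 such windows on a log scale, red points are the 132 gains and blue points the 90 losses, and the dotted lines mark the 25 point threshold; most members lie just beyond the lines and at middle levels, away from the dense corners.

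Members came from windows of middle methylation, where the 2 libraries differed most in general. A difference of 25 points needs room in both directions, so a window at a pooled level near 0% or 100% cannot be a member. Of the 222 members, 167 had a pooled CG level of 20 to 60%, a range that held 11.5% of the CHG-free windows. The SD of the difference over all CHG-free windows was 1.41 points at a pooled level of 0 to 5% and 8.91 points at 20 to 40%. At 20 to 40% there were 58 gains and 28 losses among 8136 windows, so that 1.06% were members. At 40 to 60% there were 42 gains and 39 losses among 8116 windows (0.998%), and the SD was 8.78 points.

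CHG methylation was near or at 0 in most members, and not only under the limit of 5%. It was under 2% in both libraries in 99 gains and 75 losses, and no methylated CHG read at all was counted in either library in 43 gains and 23 losses. The median CHG level of the gains was 0% in 2X and 0.215% in 4X, and that of the losses was 0.374% in 2X and 0% in 4X. CHG was higher in 4X in 55 gains and lower in 34, whereas in the losses it was higher in 24 and lower in 43. Because CHG under 5% was part of the rule, these counts are a description.

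The 5 gains with the largest difference among the 66 that had a mean CG depth of at least 10 reads in both libraries were examined cytosine by cytosine. All intervals are 95% Wilson intervals and, like the limits given for levels of 0%, cover counting error only, since several reads can come from one molecule and the libraries had no molecular tags. The first, on chromosome 14 from 1028001 to 1028500, had 8 methylated of 168 CG reads in 2X, or 4.76% (2.43 to 9.11%), and 76 of 141 in 4X, or 53.9% (45.7 to 61.9%). Among the cytosines within the window, the change was limited to one side. The 2 CG cytosines before the centre, at -83 and -82 bp, had 0 of 37 methylated reads in 2X and 1 of 32 in 4X. The 6 cytosines after it, at 39 to 144 bp, had 8 of 131 methylated reads in 2X (6.11%) and 75 of 109 in 4X (68.8%).

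The second gain, on chromosome 17 from 10683001 to 10683500, had 12 of 154 methylated CG reads in 2X, or 7.79% (4.51 to 13.1%), and 68 of 136 in 4X, or 50% (41.7 to 58.3%). Its 5 cytosines before the centre rose from 12.1% to 85.0%. The 4 after it had no methylated read in either library, in 55 and 56 reads. The third gain, on chromosome 5 from 7558001 to 7558500, had 20 CG cytosines and the most CG reads of the 5, with 10 of 403 methylated in 2X, or 2.48% (1.35 to 4.51%), and 134 of 306 in 4X, or 43.8% (38.3 to 49.4%). It was split in the same way. Its 10 cytosines at -238 to -87 bp went from 7 of 214 reads (3.27%) to 134 of 177 (75.7%), with single cytosines between 42.9% and 95.7% in 4X, and its 10 cytosines at 28 to 234 bp stayed at 3 of 189 and 0 of 129 reads.

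The fourth gain, on chromosome 17 from 6426501 to 6427000, had 18 of 183 methylated CG reads in 2X, or 9.84% (6.31 to 15.01%), and 77 of 156 in 4X, or 49.4% (41.6 to 57.1%). Its 4 cytosines at -249 to -183 bp went from 23.7% to 85.2%. The 6 at 157 to 213 bp had 0 of 107 methylated reads in 2X and 2 of 68 in 4X. The last, on chromosome 16 from 21576501 to 21577000, had 25 of 179 methylated CG reads in 2X, or 13.97% (9.64 to 19.8%), and 58 of 111 in 4X, or 52.3% (43.0 to 61.3%). Its 4 cytosines before the centre went from 20.7% to 81.7%, and the pair after it was unmethylated in all 58 and 40 reads. In all 5 windows, then, one side reached 68.8 to 85.2% in 4X and the other side was at 3.13% or less. The windows were chosen by these same CG values. How often other windows of middle level are split in this way was not examined.

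The 5 losses chosen in the same way, from the 46 with a mean CG depth of at least 10 reads, rested on fewer reads and were less sharply divided. The first, on chromosome 12 from 18660001 to 18660500, had 44 of 79 methylated CG reads in 2X, or 55.7% (44.7 to 66.1%), and 11 of 66 in 4X, or 16.7% (9.57 to 27.4%). Its 4 cytosines before the centre went from 63.8% to 24.4%, and the pair after it was almost unmethylated in both, with 0 of 10 and 1 of 25 reads. The second, on chromosome 7 from 18915001 to 18915500, held its 6 CG cytosines in a stretch at -249 to -226 bp. It went from 65 of 69 methylated reads, or 94.2% (86.0 to 97.7%), to 38 of 68, or 55.9% (44.1 to 67.1%), which was the highest 2X level among all losses.

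The second loss differed between the strands of the CG pairs. The first strand stayed high, at 92.6% in 2X and 85.7% in 4X, while the second strand went from 95.2% to 42.6%, and the cytosine of that strand just outside the window, at -252 bp, from 11 of 11 to 5 of 12 reads. In 4X the first strand had only 7 reads at each of its 3 cytosines, at -249 to -227 bp. The same few molecules may be counted at each of them. The third loss, on chromosome 12 from 22582001 to 22582500, went from 42 of 78 methylated reads, or 53.8% (42.9 to 64.5%), to 16 of 93, or 17.2% (10.9 to 26.1%). Its pair before the centre went from 57.4% to 17.8% and its 4 cytosines after it from 48.4% to 16.7%. The fourth, on chromosome 14 from 10742001 to 10742500, went from 49 of 66, or 74.2% (62.6 to 83.3%), to 23 of 61, or 37.7% (26.6 to 50.3%). The last of them, on chromosome 12 from 22482001 to 22482500, went from 55 of 69, or 79.7% (68.8 to 87.5%), to 26 of 60, or 43.3% (31.6 to 55.9%). In the last 3 of these losses both sides of the window were methylated in 2X and both were lower in 4X.

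**Figure D2:**
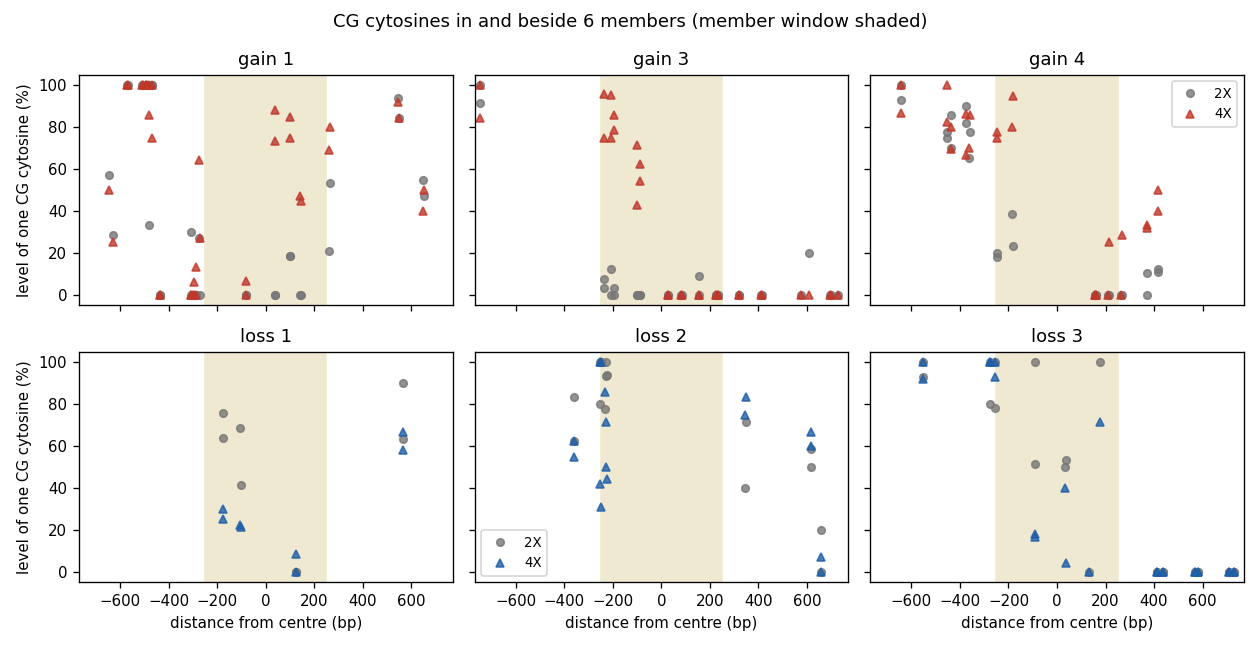
Level of single CG cytosines (vertical axis, %) by distance from the window's centre (horizontal axis, bp) in 3 gains and 3 losses, with circles for 2X, triangles for 4X and the 500 bp of the member window shaded. The gains rise at one side of the shaded window, to 68.8 to 85.2% over that side, beside cytosines near 0% in both libraries; the CG cytosines of loss 2 all lie at -249 to -226 bp.

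The cytosines beyond these windows were read as well. Beside the third gain, the 5 cytosines at 321 to 577 bp after the centre had no methylated read in either library, which extends the unmethylated side, and the next cytosines before it, at -747 and -746 bp, were methylated in both libraries, with 22 of 24 and 13 of 13 reads in 2X and 16 of 19 and 9 of 9 in 4X. Beside the fourth gain, the cytosines at -453 to -360 bp were already highly methylated in 2X, from 15 of 23 to 18 of 22 reads on the first strand of the pairs, and in 4X this level was met also by the cytosines at -249 to -183 bp. In the third loss the cytosines from -278 to -255 bp stayed methylated, with 36 of 45 and 39 of 50 reads in 2X and 26 of 26 and 26 of 28 in 4X at the best covered ones, and those from 411 bp on were unmethylated in both. The third gain and the third loss thus lay between methylated and unmethylated cytosines. The fourth gain did not have such an edge in 4X, since beyond its unmethylated cytosines those at 370 and 416 bp went from 3 of 29 to 7 of 22 reads and from 3 of 27 to 10 of 20. The rise of the second gain continued past the window, with 0 of 21 and 4 of 11 reads at -300 bp. Beside the first gain, CG rose at -274 bp from 3 of 11 to 9 of 14 reads. At 262 bp it rose from 6 of 29 to 9 of 13, and at -307 bp it fell from 3 of 10 to 0 of 16. Next to the last of the 5 losses, CG was higher in 4X at each listed cytosine from -454 to -329 bp. At -348 bp it went from 3 of 6 to 7 of 10 reads.

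The members nearest to the threshold showed how little the rule divides. The gain just inside, on chromosome 19 from 22290001 to 22290500, went from 12 of 83 to 32 of 81 methylated CG reads, 14.5% to 39.5%. The window just outside, on chromosome 17 from 12379501 to 12380000, went from 24 of 194 to 53 of 142 reads, 12.4% to 37.3%. The loss just inside, on chromosome 7 from 16793001 to 16793500, went from 22 of 68 to 8 of 109 reads, 32.4% to 7.34%, and the window just outside, on chromosome 18 from 6041001 to 6041500, from 99 of 137 to 95 of 201, 72.3% to 47.3%. Only 1 of the 12 cytosines of this last window differed by 25 points. Its side before the centre went from 22.5% to 11.1% and the other from 92.8% to 89.2%, while the reads on the less methylated side went from 40 to 108, so that a summed level can also move with where the reads fall. At any depth, and so chosen after its values were seen, the largest gain was on chromosome 11 from 2032501 to 2033000. It had 0 of 60 methylated CG reads in 2X, which allows a level of up to 5% by the limit of 3 counts and of up to 6.02% by the Wilson interval, and 82 of 132, or 62.1% (53.6 to 69.9%), in 4X, and all 9 of its cytosines rose, from 0% each to between 27.3% and 90.9%. The largest loss, on chromosome 14 from 4394001 to 4394500, went from 65 of 87 (74.7%) to 25 of 80 reads (31.3%).

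In nearly all member windows only some CG cytosines differed by 25 points or more in the direction of the window, called changed here. In the gains 596 of 1318 CG cytosines (45.2%) differed by 25 points or more in the direction of the window, a median of 4 of 9 per window, and 21 differed as much in the opposite direction. In the losses these were 381 of 835 (45.6%), a median of 4 of 8, and 6 in the opposite direction. From the first to the last, the changed cytosines spanned a median of 103 bp in the gains and 122.5 bp in the losses. All CG cytosines of the same windows spanned 343 and 305 bp, but fewer cytosines span less in any case, and the changed ones were picked by the values that the rule used. The span was under 150 bp in 82 gains and 50 losses, and in 50 gains and 40 losses no unchanged CG cytosine lay between the changed ones. Every CG cytosine had changed in 1 gain and in no loss. A single cytosine has few reads, at least 3 in each library, so these counts contain read sampling. The median window difference was 28.4 points in the gains and -27.8 in the losses. Read sampling can therefore leave cytosines of an evenly changed window under 25 points. For this reason the counts cannot show whether only part of a window changed.

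Cytosines covered by 10 reads or more in each library gave a firmer view of the levels at single sites. In the gains 464 of 1318 qualified. In 2X 61.0% of them were low (under 20%), 32.8% middle and 6.25% high (over 80%), and in 4X 27.4% were low, 47.4% middle and 25.2% high. Of these, 134 went from low to middle, 66 from middle to high and 24 from low to high, while 125 stayed low. In the losses 254 of 835 qualified, with 20.5% low, 52.0% middle and 27.6% high in 2X and 37.8%, 52.8% and 9.45% in 4X. Here 41 went from high to middle, 40 from middle to low and 5 from high to low. Among the cytosines that changed class, moves into or out of the middle class were thus more frequent than a full switch in both directions. The same held in the kept middle windows, the comparison set defined below for the strands. There 9 went from low to high and 10 from high to low, against 1462 from low to middle and 2589 from high to middle. This order is therefore not particular to the members. In the gains 236 of 464 cytosines stayed in their class, in the losses 167 of 254 and in the kept middle windows 53238 of 61291. These reads also chose the members, so the moves are a description. Terminal buds hold several cell types and pooled plants, and which molecules came from which was not measured.

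**Figure D3:**
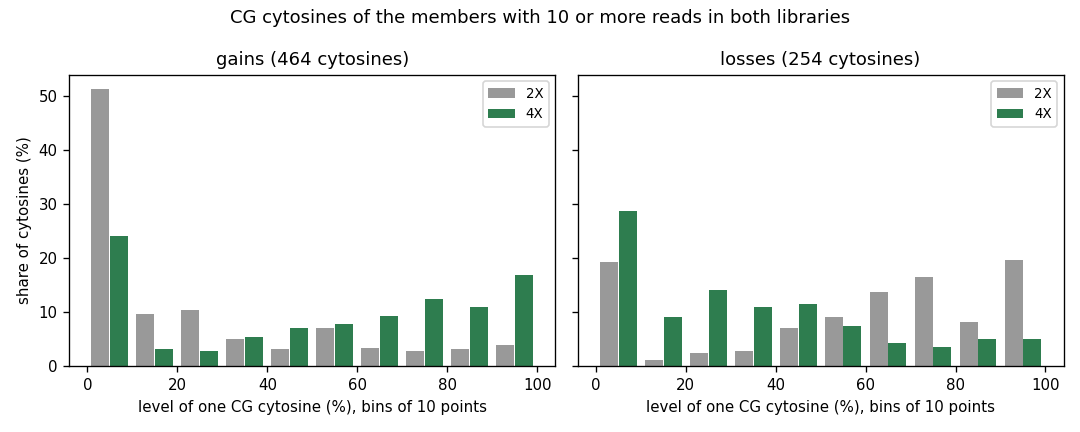
Share of CG cytosines (vertical axis, %) by level in bins of 10 points (horizontal axis, %) in the gains (464 cytosines) and losses (254), with grey bars for 2X and green bars for 4X, for cytosines covered by 10 reads or more in each library. In the gains the low end empties, from 61.0% of cytosines under 20% in 2X to 27.4% in 4X, and the mass spreads over middle and high levels; in the losses the share over 80% goes from 27.6% to 9.45%.

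CG pairs are symmetric, so the level on either strand can be compared. Over the pairs with both cytosines listed in both libraries, 104 gains and 65 losses had at least 3 pairs and 15 reads per strand and library. The strand levels are made of the CG reads that chose the members, so the strands' moves are a description and no separate check. Both strands moved in the direction of the window in 99 of the 104 gains and 64 of the 65 losses. Both moved by 25 points or more in 42 gains (40.4%) and 21 losses (32.3%), and 1 strand alone did so in 52 gains and 43 losses. The strands of one library also differed from each other: by a median of 9.07 points in 2X and 9.18 in 4X in the gains, and by 9.09 and 7.90 points in the losses. Windows with a pooled level of 20 to 60%, CHG under 5% and a difference under 10 points, called kept middle windows here (12464, a comparison set chosen after seeing the data), had gaps of 9.29 and 9.48 points. A gap of 25 points or more between strands was present in 10.6% of the gains, 12.3% of the losses and 10.02% of the kept middle windows in 2X, and in 13.5%, 16.9% and 10.2% of them in 4X. In the fourth gain, for example, the 4X level was 14.9% on the first strand and 75.3% on the second, whereas in the first gain it was 49.3% and 58.3%. The reads of the strands were unequally spread over the cytosines in the fourth gain.

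**Figure D4:**
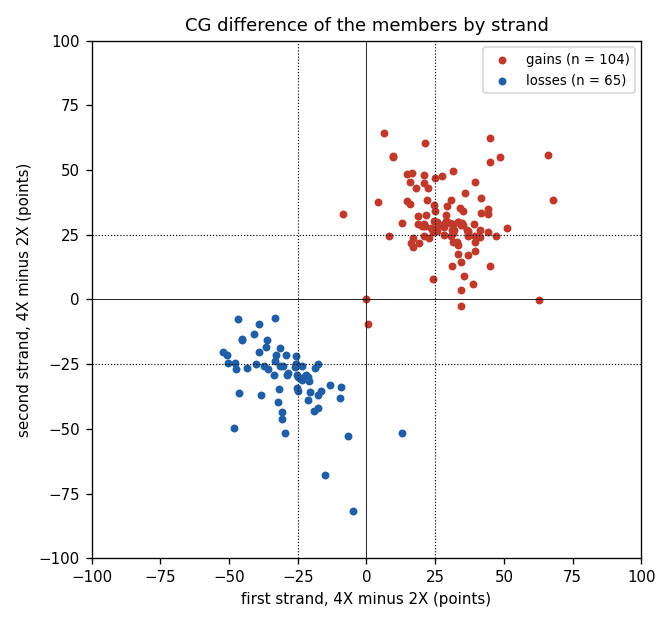
Difference in CG level, 4X minus 2X in points, on the first strand (horizontal axis) and the second strand (vertical axis) of the CG pairs, for 104 gains (red) and 65 losses (blue), with dotted lines at 25 points. Nearly all gains lie in the upper right and nearly all losses in the lower left, with 42 gains and 21 losses past the line on both strands. The rule used the reads of both strands, which favours these corners.

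CHH methylation, which the rule did not use, was very low in the members and was tested in each window by Fisher's exact test (two-sided, Benjamini-Hochberg over all 309448 windows). Over all windows 3.58% were called higher in 4X and 4.26% lower. Of the 132 gains 13 (9.85%) were called higher and 2 (1.52%) lower. Of the 90 losses 7 (7.78%) were called lower and 3 (3.33%) higher. In the kept middle windows 3.67% were called higher and 4.92% lower. The members' counts depended on the settings: with windows shifted by 250 bp, 6 of 132 gains were called higher and 4 of 107 losses lower, and with the mean of the cytosine levels in place of summed reads 5 of 143 gains were called higher. With CHG under 2% in both libraries, 8 of 99 gains were called higher and 2 of 75 losses lower. The median CHH level went from 0.222% to 0.333% in the gains, where it was higher in 88 windows and lower in 42, and from 0.188% to 0.176% in the losses, where it was higher in 41 and lower in 46. The median difference was 0.123 points in the gains, -0.0185 in the losses and -0.0163 in the kept middle windows. Whether the members' share differs from that of other windows was not tested, and the windows' CHH and CG reads come from the same molecules.

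In most members with a CHH call the level remained low, and a few stood apart. In the fourth gain CHH went from 0.343% to 3.49% (Fisher's exact test, adjusted p = 1.41e-09), with CHG at 0% and 1.95%. In the other 4 of the 5 named gains the adjusted p of CHH was 0.226 or more. The largest CHH rise of all members, chosen after its values were seen, was in a gain on chromosome 19 from 6600501 to 6601000, where CHH went from 0.300% to 18.2% (adjusted p = 1.03e-16, Fisher's exact test), CG from 20% to 50% and CHG from 0% to 4.26%. This window had a mean CG depth of only 6 reads in 2X and 6.80 in 4X, and its CHG in 4X was near the limit of the rule. The largest CHH fall among the losses, also chosen afterwards, was on chromosome 19 from 17514001 to 17514500, from 3.26% to 0.169% (adjusted p = 1.48e-07, Fisher's exact test), with CG from 57.1% to 25.8% and CHG from 3.91% to 0.282%. In both windows all 3 contexts moved in the same direction.

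In the windows 1000 bp away, CG differed little between the libraries. At this distance before and after the members, windows that met the same minimums and were no members themselves numbered 103 for the gains and 80 for the losses. Their median CG difference was 0 in both, with an interquartile range of -2.38 to 0.631 points around the gains and -1.68 to 2.09 points around the losses. By Fisher's exact test, against the 0.800% called higher and 0.591% called lower over all windows, 0 of the 103 were called higher and 1 lower, and 0 of the 80 were called in either direction. The single differences at this distance ranged from -22.5 to 21.3 points around the gains and from -18.7 to 19.2 points around the losses. With windows shifted by 250 bp, 1 window was called higher at this distance from gains and 2 lower from losses. Under a looser minimum, chosen after seeing the data, of 3 CG cytosines and 30 CG reads per library, 2 of 60 windows before and 1 of 70 after the losses were lower by 25 points or more, and 1 of the 70 higher. Of 95 windows before and 100 after the gains, 0 were higher by 25 points or more and 1 on either side was lower. These windows can share a few read pairs with the members.

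Directly beside the gains some windows were higher in 4X as well. Adjacent windows share read pairs with the member, so they are not independent of it. Beside the losses, moves of 10 points or more were almost as frequent in the other direction. Under the looser minimum 193 windows adjacent to gains could be read, of which 26 were higher in 4X by 10 points or more and 10 lower, and 6 higher by 25 points or more (3.11%). Of these 6, 5 lay before the gains and 1 after. Among adjacent windows that met the main minimums, the highest difference was 59.6 points, at -500 bp. That window was no member, so its CHG was not under 5% in both libraries. Of 124 windows adjacent to losses, 16 were lower by 10 points or more and 13 higher, with 3 lower by 25 points or more (2.42%) and 1 higher. Of 19933 windows adjacent to kept middle windows, 1361 were higher and 1251 lower by 10 points or more. By 25 points or more, 80 were higher (0.401%) and 59 lower. No member had another member directly beside it, so that there were no runs of members to describe. The nearest 2 members were 7500 bp apart, and the median distance from a member to the next was 496750 bp.

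**Figure D5:**
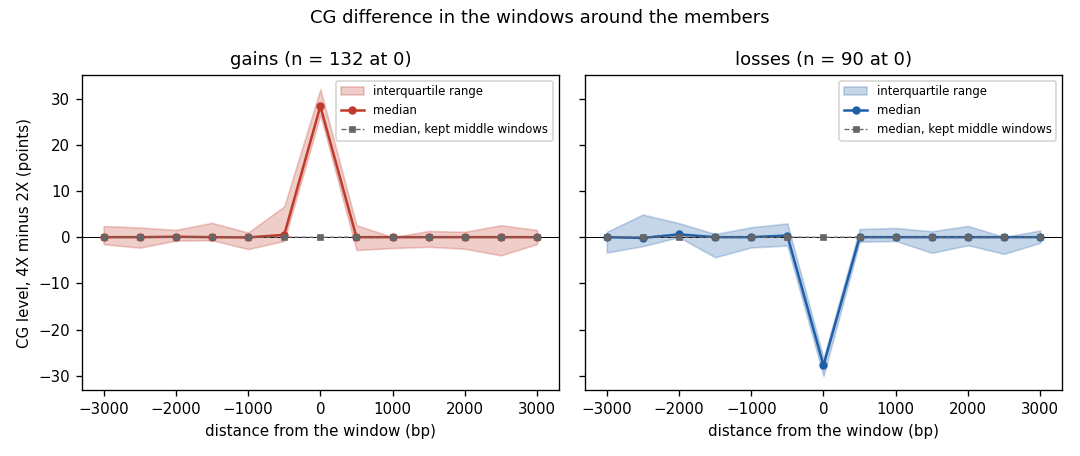
Difference in CG level, 4X minus 2X in points (vertical axis), in the windows up to 3000 bp before and after gains and losses (horizontal axis, bp), as median (line) and interquartile range (band), with the kept middle windows in grey. The medians are 28.4 points in the gains and -27.8 in the losses at 0 and lie near 0 on either side; the value at 0 is set by the rule, in the kept middle windows too.

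About as often as other windows of middle level, members had an almost unmethylated window on exactly 1 side. Where both adjacent windows could be read under the looser minimum and were pooled over the libraries, exactly 1 of them was under 10% CG beside 37 of 72 gains (51.4%) and 20 of 41 losses (48.8%). The share was 52.9% for the kept middle windows and 17.3% for all kept CG-only windows, which are 54555 CHG-free windows with a mean CG level of at least 25% and a difference under 10 points. A sharp edge, with the other adjacent window at 60% CG or more, was present beside 20 gains (27.8%) and 8 losses (19.5%), against 35.0% of the kept middle windows. Both adjacent windows were under 10% beside 10 gains (13.9%) and beside no loss, and in 5.38% of the kept middle windows. Gains thus included some isolated patches in unmethylated surroundings. With only 41 losses read, finding none among them cannot be told apart from the 5.38% of the kept middle windows. The gains and losses were also not matched for pooled CG level. Whether they differ in this respect was not tested.

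The members were near comparable windows in their number of CG cytosines, but the gains held fewer CHG and CHH cytosines. The median number of CG cytosines was 9 in the gains and 8 in the losses, against 10 in the kept middle windows and 11 in all CHG-free windows. The median number of CHG cytosines was 18.5 in the gains and 22 in the losses, against 23 in the kept middle windows. Its interquartile range was 9 to 24.25 in the gains, against 16 to 30 in the kept middle windows. The median number of CHH cytosines was 106.5 in the gains, 119.5 in the losses and 121 in the kept middle windows. Coverage was a little lower in the members. The median CG depth was 10.9 reads in 2X and 10.7 in 4X in the gains and 11.2 and 10.6 in the losses, against 12.9 and 12.2 in the kept middle windows. With at least 100 CG reads per window in each library, 47 gains and 24 losses remained, and their rate per 10000 CHG-free windows went from 9.34 to 5.38 and from 6.37 to 2.75. The depth ratio of 4X to 2X had a median of 0.946 in the gains, 0.962 in the losses and 0.937 in the kept middle windows. The nearest window with CHG of 20% or more was a median of 4000 bp from a gain and 4750 bp from a loss, against 4500 bp for the kept middle windows.

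Members were found on all 19 chromosomes, in unequal numbers. Chromosomes 7 and 18 held the most, with 20 each, and chromosome 4 the fewest, with 3. Relative to the CHG-free windows, gains ranged from 1.14 per 10000 on chromosome 4 to 19.2 on chromosome 19, which held 12 of them. Losses ranged from 2.28 per 10000 on chromosome 4 to 13.9 on chromosome 16, which held 7. Gains outnumbered losses on 14 of the 19 chromosomes, but chromosome 14 held 11 losses and 4 gains. With so few members per chromosome, no test of these counts was run.

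The CG cytosines that were listed in only 1 library took no part in the choice of the members and could be compared in few of them. Of 13907 windows with at least 10 such reads in each library, 1.21% were called higher in 4X and 1.32% lower by Fisher's exact test. Among the members 3 gains and 4 losses could be tested, and none was called. Of the 7, 2 had an unadjusted p under 0.05: a gain that was lower in 4X at these cytosines, at 90.9% of 11 reads in 2X and 41.2% of 34 in 4X (adjusted p = 0.129 by Fisher's exact test), and a loss that was lower too, at 91.7% of 12 reads and 50% of 14 (adjusted p = 0.445 by Fisher's exact test). Of the 3 gains, 1 was higher, 1 lower and 1 equal. Of the 4 losses, 1 was lower, 1 higher and 2 equal. This check covers too few reads to speak for the members, and the cytosines compared differ between the libraries.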

How the data were processed

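Each line's bud DNA gave 1 bisulfite library, grouped by the ploidy in its label. According to the study's methods, the authors filtered and mapped paired-end reads with an aligner spelled Bimark; its version, duplicate handling, conversion rate and build are not stated there. Each line of the deposited tables holds 1 cytosine, with whole-number counts of methylated and unmethylated reads, not normalized, and a level in percent; the deposited percent equalled the counts in every line. The lowest coverage of a listed site was 3 reads. Cytosines without a context (10 in 2X, 6 in 4X) were left out.

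Cytosines listed in both files on sequences 1 to 19, which held 90.2% of those listed in each, were summed per 500 bp window and context. Windows were compared by two-sided Fisher tests with Benjamini-Hochberg adjustment at 0.05 (Python 3.11.15, scipy 1.17.1, numpy 2.4.6, pandas 2.3.3), tested on simulated data. Members and lists were chosen with earlier results of these data known. Windows were named by rule: in each direction the 5 largest differences at a mean CG depth of at least 10 reads, and those nearest the threshold; exceptions are marked. Alternatives were other read minimums, weights, windows, thresholds and CHG limits. Sequences of the windows and an annotation on the files' coordinates were not used here.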

Additional observations from a re-analysis of the deposited data

How the results depend on the processing

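No paired analysis was possible because there was only 1 library per line. Gains outnumbered losses under each of the 11 settings, and which windows qualified depended on depth. At 5 reads or more per cytosine there were 84 gains (71 of them among the 132) and 71 losses (43 of the 90). At 10 reads or more there were 23 gains (12 shared) and 15 losses (7 shared), with 2 gains called higher in CHH and 2 losses called lower, against 13 and 7. At 100 CG reads per window there were 47 gains and 24 losses, with 6 and 3 CHH calls. Averaging the cytosine levels gave 143 gains and 94 losses, of which 67 and 38 were shared, and 5 gains called higher in CHH. Shifting the windows by 250 bp left 132 gains and 107 losses, with 6 and 4 CHH calls. With this shift 3 losses were called at cytosines of 1 library, against 0. At 1000 bp, 1 window was called higher from gains and 2 were called lower from losses, against 0 and 0. Windows of 1000 bp gave 69 gains and 41 losses, with 8 and 3 CHH calls. At 2 windows' distance, 2 windows were then called higher from gains and 1 was called lower from losses. A threshold of 40 points left 10 gains and 1 loss, with 1 and 0 CHH calls. CHG under 2% left 99 gains and 75 losses, with 8 and 2 CHH calls, and CHG under 10% gave 155 and 106, with 1 loss called at cytosines of 1 library. Requiring 25 points on both strands, chosen after seeing the data, left 42 gains and 21 losses, of the 104 and 65 that could be read by strand. Higher minimums leave fewer windows to read, but the rate per 10000 CHG-free windows fell too, from 9.34 to 5.38 for gains and from 6.37 to 2.75 for losses at 100 CG reads, and to 4.82 and 3.15 at 10 reads per cytosine. The cause of the other shifts was not tested. Of the 82 values recomputed, 52 stayed within 1.5 times the reported value, but most of these were counts of 0 that stayed 0. Those were the calls at cytosines of 1 library and at 2 windows' distance. Among the values reported above 0, more moved beyond that range than stayed within it. With 1 library per line, no setting measures variation between plants.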
